A study of Schizosaccharomyces pombe with 130 samples.

Results

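Flocculins are cell-surface glycoproteins with which yeast cells stick to each other, and 5 flocculin genes of fission yeast (Schizosaccharomyces pombe) were followed here together with 2 genes for transcription factors that act on them. The 7 genes (gsf2, pfl3, pfl4, pfl5 and pfl7 for the flocculins, mbx2 and cbf12 for the factors) were chosen by name, without regard to their values, out of 7021 features counted in every library. They were read in polyadenylated RNA (pA RNA, steady-state RNA), in RNA that came down with polymerase phosphorylated at serine 2 of its repeated tail (Pol II RIP, nascent RNA), and in DNA that came down with it (Pol II ChIP, RNA Pol II occupancy).

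Cells were grown in rich medium. Besides wild type, the strains carried mot2Δ, caf1Δ or ccr4Δ (subunits of the Ccr4-Not deadenylase complex), caf1*ccr4* (point mutations in the active sites of both deadenylases), rrp6Δ (a nuclease of the nuclear exosome), exo2Δ (the 5′ to 3′ exonuclease), ago1Δ (Argonaute of the RNAi pathway), clr4Δ (the H3K9 methyltransferase), swi6Δ or chp2Δ (the 2 HP1 proteins), and clr3Δ or mit1Δ (the deacetylase and the remodeler of the SHREC complex). The doubles caf1Δago1Δ and caf1Δdcr1Δ (dcr1 encodes Dicer of the RNAi pathway) have no pA RNA library analysed here. Wild-type libraries came from 2 strains, an h+ strain numbered 63 without a tag and an h90 strain numbered 65 with FLAG-tagged ago1. The mutants rrp6Δ, exo2Δ, ccr4Δ, mot2Δ and 1 of the caf1Δ strains (number 510) carried the same tag. Of these tagged mutants, rrp6Δ and exo2Δ were h+ and the others h90, and rrp6Δ also had another ade6 allele and a his7 allele. The strains swi6Δ and chp2Δ were h90 with a ura4 insertion at mat3, and a second caf1Δ strain (number 591) and caf1*ccr4* shared another h90 background. The strains clr4Δ, ago1Δ, clr3Δ and mit1Δ were h+ without the tag. The site of the ura4 insertion and the ura4 and ade6 alleles of mit1Δ differed from those of the other 3 and of strain 63. Of the doubles, caf1Δago1Δ strain 523 was h90 without the tag, and the backgrounds of its second strain (number 524) and of caf1Δdcr1Δ (number 521) were not given in the sources used here. Both wild-type RIP libraries were of strain 63. In nascent RNA a mutation and its background thus cannot be told apart in the tagged strains, the h90 strains and mit1Δ.

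Fission yeast does not flocculate in standard rich medium and is induced to do so in media that force it to respire. The dominant flocculin is Gsf2, which binds galactose residues on neighbouring cells, and the Pfl proteins belong to the same family. Mbx2, a MADS-box factor, and Cbf12, a factor of the CSL family, are activators of the flocculin genes, and deletion of the Tup corepressors or of the kinase Lkh1 makes cells flocculate.

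The genes lie on chromosomes II and III (coordinates of the RefSeq annotation of ASM294v3). The gene gsf2 (SPCC1742.01) spans III:959199-966012 on the minus strand, mbx2 (SPBC317.01) spans II:3626639-3628658 on the plus strand, and cbf12 (SPCC1223.13) spans III:1871367-1875842 on the plus strand. The gene pfl3 (SPBC947.04) lies at II:669581-672835 on the minus strand and pfl4 (SPCC188.09c) at III:1492788-1496382 on the minus strand. The genes nearest to a chromosome end were pfl5 (SPBC1289.15, II:4421395-4425608, plus strand), 114 kb away, and pfl7 (SPBC359.04c, II:117892-119328, minus strand), 118 kb away. Each coding sequence was 1 unbroken stretch. The transcript lengths in the deposited counts differed from the reference, most for mbx2 (6079 against 2020 bases) and pfl7 (3298 against 1437 bases), and levels per length used the deposited ones.

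Tandem repeats, a hallmark of flocculins, were found in 3 of the coding sequences, and they are shown because reads that fall at several places within a gene could be lost from its count. In gsf2 a unit of 234 bases ran over 1609 bases, with 93.0% identity between neighbouring copies. In pfl3 a unit of 105 bases ran over 1001 bases, 34.3% of the coding sequence, with 94.4% identity, and in pfl5 a unit of 105 bases ran over 1738 bases, 45.1% of the coding sequence, with 89.4% identity. The units below are on the coding strand, 5′ to 3′, from the RefSeq genome ASM294v3, and capitals mark bases that differ from the commonest base at that place among the gene's copies.
gsf2 unit 5, III:962256-962489: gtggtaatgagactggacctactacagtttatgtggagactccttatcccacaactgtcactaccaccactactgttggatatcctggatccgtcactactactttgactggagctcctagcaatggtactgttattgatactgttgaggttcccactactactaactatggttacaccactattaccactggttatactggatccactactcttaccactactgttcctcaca
gsf2 unit 6, III:962022-962255: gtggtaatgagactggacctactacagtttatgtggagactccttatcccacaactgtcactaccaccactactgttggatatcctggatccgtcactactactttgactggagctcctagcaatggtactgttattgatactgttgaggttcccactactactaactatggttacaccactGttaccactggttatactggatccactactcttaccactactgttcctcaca
pfl3 unit 5, II:670749-670853: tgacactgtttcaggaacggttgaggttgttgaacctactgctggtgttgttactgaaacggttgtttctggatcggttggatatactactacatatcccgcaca
pfl3 unit 6, II:670644-670748: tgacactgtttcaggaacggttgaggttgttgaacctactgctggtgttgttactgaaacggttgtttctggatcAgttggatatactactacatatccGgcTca
pfl5 unit 4, II:4422332-4422436: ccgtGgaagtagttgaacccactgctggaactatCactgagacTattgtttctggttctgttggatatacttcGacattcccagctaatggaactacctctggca
pfl5 unit 5, II:4422437-4422541: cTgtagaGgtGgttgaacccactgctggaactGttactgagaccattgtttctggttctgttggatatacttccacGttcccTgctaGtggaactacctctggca
Of all windows of 50 bases in the gene, 39.9% in gsf2, 33.7% in pfl3 and 48.2% in pfl5 occurred more than once in the genome, each time within the same gene. No window of mbx2, cbf12, pfl4 or pfl7 did. Reads that fall wholly within such windows have several locations, and outside heterochromatin the authors did not count such reads.

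The bases before the annotated start of pfl3 are shown because pfl3 changed in more mutants than any of the other 6 genes. The stretch II:672836-673085 on the minus strand lies within the non-coding RNA SPNCRNA.1379 of the opposite strand, and capitals mark TATAAA.
pfl3, 250 bases before the start: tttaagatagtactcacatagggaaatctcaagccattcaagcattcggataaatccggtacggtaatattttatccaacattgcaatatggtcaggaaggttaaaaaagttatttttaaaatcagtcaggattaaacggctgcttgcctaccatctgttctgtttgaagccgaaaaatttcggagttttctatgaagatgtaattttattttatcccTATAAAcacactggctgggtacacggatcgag
On either strand, TATAAA stood in this window for 3 of the 7 genes and for 2270 of 5112 protein-coding genes (44.4%). The letters GTGGGAA or GTGAGAA, which CSL proteins such as Cbf12 bind, were searched on both strands from 250 bases before to 50 bases after the start. They stood in 0 of the 7 windows and in 253 of 5112 (4.95%). For mbx2 and pfl7 the annotated start is the start of the coding sequence, so that their windows for both searches may not hold the promoter.

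The series held 32 pA RNA, 37 RIP and 31 Pol II ChIP libraries, with total counts of 2817056 to 22003055, 320010 to 5935793 and 2463636 to 23465130, and 8 total RNA libraries with 771954 to 6703361. Replicate 3 of mit1Δ and replicate 3 of rrp6Δ were left out of the ChIP tests, since their best Spearman correlation with another replicate was 0.731 and 0.730. These and 3 further ChIP libraries (both of caf1Δago1Δ and replicate 3 of chp2Δ) stood apart in that their profiles were nearer to input DNA, with a Spearman correlation of 0.315 to 0.450 against 0.00412 to 0.134 in the other 26. All ChIP results of caf1Δago1Δ rest on such libraries, and what part this had in them was not tested. In the libraries labelled swi6Δ, the count of swi6 was 30.8 to 60.3% of the level of the other strains in pA RNA. There it was 68.7 to 86.8% in RIP and 164 to 173% in ChIP. In those labelled clr4Δ, the count of the deleted gene did not show the deletion (85.1 to 120% in pA RNA, 78.7 to 101% in RIP). It was over 50% of the level of the other strains also in every ChIP library of mot2Δ, clr3Δ, chp2Δ and caf1Δ, in 1 of caf1Δago1Δ, and, among RNA libraries, in pA RNA of caf1Δ (up to 53.3%), RIP of chp2Δ (up to 65.3%) and, for dcr1, the caf1Δdcr1Δ library. The study calls its replicates biological and its samples independent, without stating whether each library of a genotype came from a separate culture. The p-values measure the spread between these libraries, part of which may be technical.

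In wild-type cells, 6 of the 7 genes had much less steady-state RNA than their nascent RNA would give at the usual ratio. All levels here are TPM, counts per deposited transcript length scaled to the library, and the ratios of mean pA RNA to mean RIP (RNA stability) and of mean RIP to mean ChIP (transcription efficiency) follow the study's definitions. The ratio of pA RNA to RIP was 0.0284 for gsf2, at percentile 0.556 of 5033 protein-coding genes, and 0.0440 for mbx2, at percentile 1.07. It was 0.0628 for pfl5, 0.0757 for cbf12, 0.0908 for pfl3 and 0.115 for pfl4, all at or below percentile 5.03. The exception was pfl7, with 0.508 against a median of 0.628 over all genes. These are ratios of group means over 4 pA RNA and 2 RIP libraries, and no test was made between genes.

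**Figure D1:**
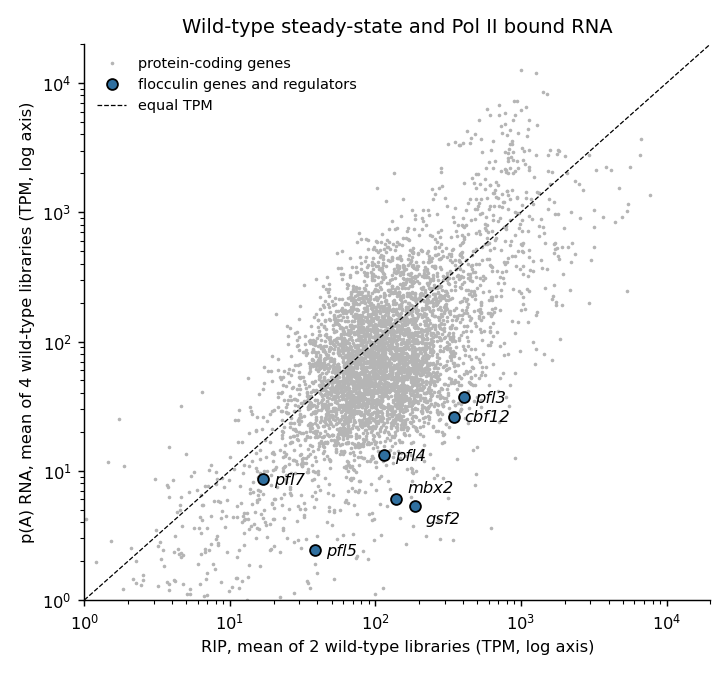
Mean pA RNA (vertical, TPM, log axis) against mean Pol II RIP (horizontal, TPM, log axis) in wild type, 1 grey point per protein-coding gene and blue points for the flocculin genes and their regulators. All 7 blue points lie below the dashed line of equal TPM, with gsf2 at 5.32 in pA RNA against 187 in RIP and pfl7 nearest to the line at 8.61 against 17.0.

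The 7 genes differed among themselves in nascent RNA and occupancy. In RIP, cbf12 (mean 346 TPM) and pfl3 (407 TPM) lay above the median gene (108 TPM), whereas pfl5 (38.5 TPM) and pfl7 (17.0 TPM) lay below it. Transcription efficiency was 2.41 for gsf2 (percentile 98.5), 2.09 for pfl3 (percentile 97.2) and 0.319 for mbx2 (percentile 10.6), beside a median of 0.785. These ratios depended on the wild-type ChIP library. With that of strain 63 alone, the strain of both RIP libraries, they were 1.85, 1.38 and 0.593, and pfl7 (0.504) was the lowest of the 7, whereas with that of strain 65 alone they were 3.45, 4.28 and 0.218. Relative to input DNA, Pol II occupancy was lowest at pfl7 (0.174) and pfl5 (0.274), the 2 genes nearest to chromosome ends, and both stayed the lowest of the 7 in each strain. It was 2.47 at mbx2 and 1.29 at pfl3, and their order turned between strain 63 (1.33 and 1.96) and strain 65 (3.61 and 0.629). In H3K9me2 ChIP relative to input, 0 of the 7 genes passed the 95th percentile of genes in any of the 9 genotypes measured, each by 1 library, and in wild type their ratios of 0.0757 to 0.145 lay around the gene median of 0.0932.

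Each mutant was compared with wild type by the quasi-likelihood test of edgeR on the counts, in 1 fit per assay, with p-values adjusted over all features by the Benjamini-Hochberg method and a threshold of 0.05. All 7 genes passed the minimum of 10 counts in 2 libraries in each of the 3 assays. In pA RNA, 7 of 84 pairs of a gene and a mutant passed (1 higher, 6 lower), beside 10.6% of all pairs of features and mutants. In RIP, 13 of 84 passed, all 13 lower, beside 2.04% of all pairs. In Pol II ChIP, 10 of 84 passed (3 higher, 7 lower), beside 4.52%. Among the 10 were cbf12, mbx2, pfl3, pfl5 and pfl7 in caf1Δago1Δ, whose ChIP libraries were near input. That mutant also held 2525 of the 3673 calls over all features. In total RNA, measured in ago1Δ, caf1Δ and clr4Δ, 0 of 21 passed by edgeR, beside 0% of all pairs, with 0 of them under an unadjusted p of 0.05 and 0 by DESeq2. Over all pairs of these genes the median log2 fold change was -0.08 in pA RNA, -0.27 in RIP and -0.04 in ChIP, and over all features it lay between -0.01 and 0.01 in these assays.

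**Figure D2:**
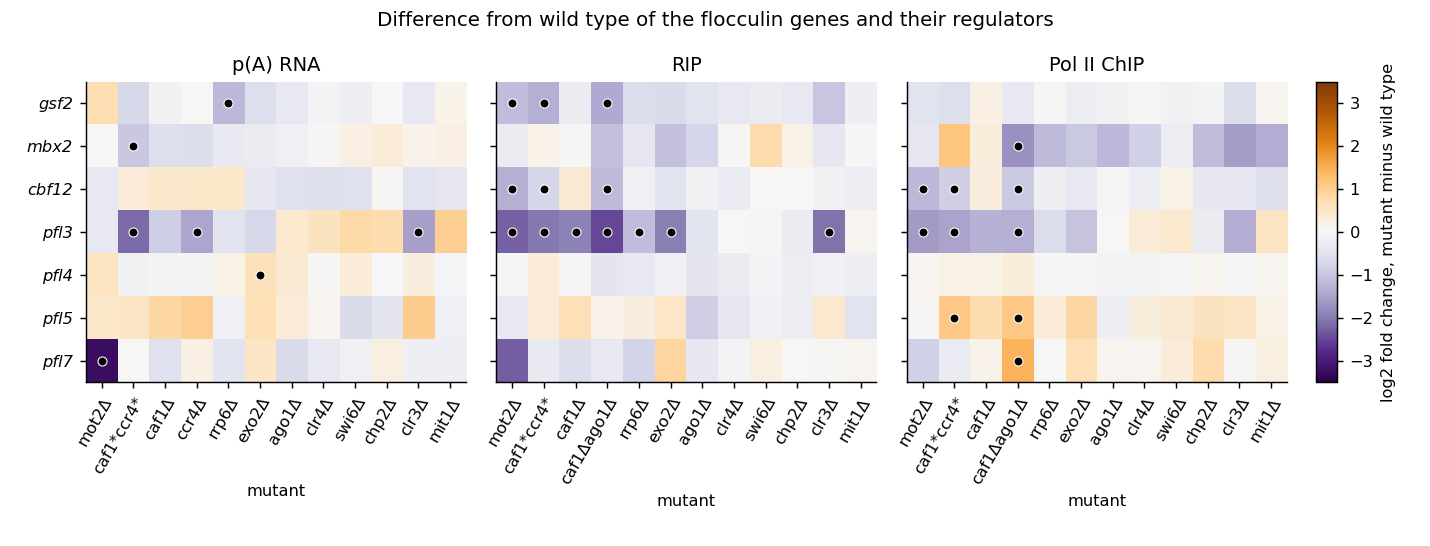
Log2 fold change of each gene (rows) in each mutant with at least 2 libraries (columns), mutant minus wild type, in pA RNA, RIP and ChIP, with dots where the adjusted p was under 0.05. The row of pfl3 holds 7 of the 13 dots in RIP, and the strongest cell is pfl7 in mot2Δ in pA RNA, at -3.23.

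A test of any difference among genotypes asked whether a gene varied at all. In pA RNA 4 of the 7 genes passed (pfl3, pfl7, pfl5 and mbx2), beside 64% of all features. In RIP 5 passed (pfl3, cbf12, gsf2, pfl5 and mbx2), beside 31%, and in ChIP 5 passed (pfl3, cbf12, mbx2, pfl7 and pfl5), beside 49.1%. The ChIP test included the near-input libraries of caf1Δago1Δ, the only mutant in which pfl7 had a call in ChIP. The lowest adjusted p was that of pfl3 in each assay, at 3.6e-06, 3.3e-10 and 0.000248. By the ratio of highest to lowest genotype mean, pfl7 exceeded pfl3 in pA RNA (10.8 against 7.56). In ChIP both pfl7 (6.75) and mbx2 (6.34) exceeded pfl3 (4.92) by that ratio. The flocculin gene pfl4 passed in none of the assays, with adjusted p of 0.0559, 0.254 and 0.147. In bulk samples such as these, fewer cells that express a gene and less RNA per cell cannot be told apart.

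The regulator mbx2 had its highest Pol II occupancy in caf1*ccr4* and in strain 591 of caf1Δ, which share a background without a wild-type library. No rise of mbx2 RNA passed in mutants of the deadenylases. In ChIP, mbx2 stood at 990 and 806 TPM in caf1*ccr4*, 600 TPM in the ccr4Δ library, and 767 (strain 591) and 259 TPM (strain 510) in caf1Δ. The wild-type libraries were at 234 TPM (strain 63) and 637 TPM (strain 65), and the libraries labelled swi6Δ at 418 and 343 TPM. The tagged deadenylase mutants, ccr4Δ and strain 510 of caf1Δ, thus lay below the tagged wild type of strain 65. Both caf1*ccr4* libraries lay above every other library of the assay, but the difference from wild type did not pass (log2 fold change 1.15, SE 0.43, adjusted p = 0.0950). In caf1Δago1Δ, at 176 and 173 TPM, mbx2 occupancy fell by 1.72 on the log2 scale (SE 0.44, adjusted p = 0.0068). That mutant's ChIP libraries were among those near input, where mbx2 itself lay between 160 and 191 TPM, and 37.2% of all features passed in it. Without the wild-type library of strain 65 the difference shrank to -0.82 with an adjusted p of 0.17.

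RNA was counted by strand and ChIP was not, and in the RefSeq annotation the 2020 bases of mbx2 lie wholly inside the antisense RNA SPNCRNA.1626 (II:3626024-3631136, minus strand). The mbx2 feature that was counted is longer (6079 bases) than SPNCRNA.1626 (5113 bases), so that part of it lies outside. Over 29 ChIP libraries, the counts on mbx2 and on SPNCRNA.1626 had a Spearman correlation of 0.94, and without strand the reads of the shared bases cannot be told apart. In RIP, SPNCRNA.1626 stood at 8210 and 6667 CPM (counts scaled to the library total) in caf1*ccr4*, 7469 in ccr4Δ, and 9379 (strain 591) and 1503 (strain 510) in caf1Δ, beside 2060 and 1352 in wild type. The 4 highest values of the assay came from deadenylase mutants. By edgeR the difference from wild type passed in 0 of 12 mutants in RIP, with 3 at an unadjusted p under 0.05, and in 0 of 12 in pA RNA, with 3. In RIP these 3 were caf1*ccr4* (log2 fold change 1.97, SE 0.64, adjusted p = 0.0677) and caf1Δ (1.56, adjusted p = 0.41) on the higher side and rrp6Δ (-2.01, adjusted p = 0.11) on the lower side, and in pA RNA they were chp2Δ, clr3Δ and swi6Δ, with log2 fold changes of -1.22, -1.22 and -1.15. Sense mbx2 RNA did not follow it, with a Spearman correlation over 37 RIP libraries of 0.23 and over 32 pA RNA libraries of -0.66. These correlations are descriptions over libraries that share genotypes and depth. The occupancy of mbx2 thus cannot be assigned to a strand.

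**Figure D3:**
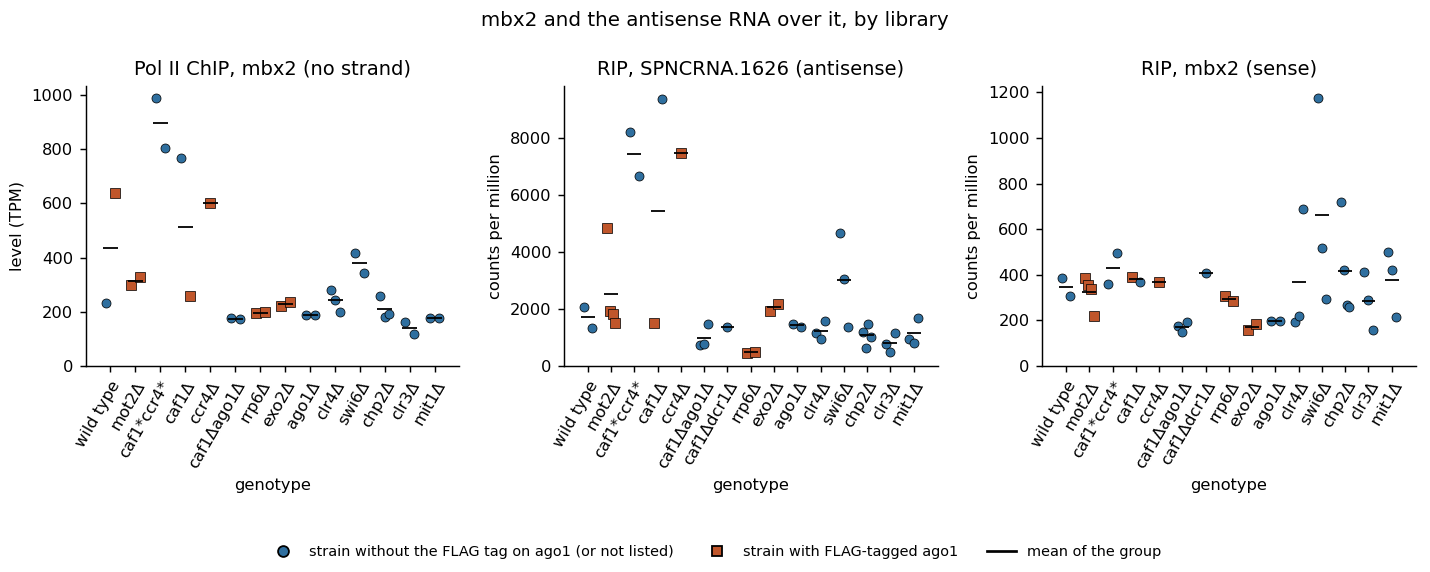
Level of mbx2 in Pol II ChIP (left, TPM), of the antisense RNA SPNCRNA.1626 in RIP (middle, CPM) and of sense mbx2 in RIP (right, CPM), 1 point per library, with squares for strains with FLAG-tagged ago1 and lines at group means. The caf1*ccr4* libraries are the highest in the left panel (990 and 806) and among the 4 highest in the middle panel, but not in the right panel.

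In steady-state RNA mbx2 was low everywhere. The 4 wild-type libraries were at 9.0, 5.83, 4.68 and 4.92 TPM, and the caf1*ccr4* libraries at 3.98 and 3.61 TPM. Both mutant libraries lay below all 4 wild-type libraries. The level fell by 0.97 on the log2 scale in caf1*ccr4* (SE 0.27, adjusted p = 0.0164), where 17.5% of all features passed. With strain 65 as the only wild type the adjusted p was 0.10. In RIP mbx2 ranged from 58.8 TPM in caf1Δago1Δ to 482 TPM in a library labelled swi6Δ, and 0 of 12 mutants passed by edgeR, with 2 at an unadjusted p under 0.05 and 0 by DESeq2.

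The regulator cbf12 lost nascent RNA in mot2Δ, caf1*ccr4* and caf1Δago1Δ. In RIP, wild type was at 309 and 383 TPM and the 4 mot2Δ libraries were at 164, 154, 156 and 136 TPM. All 4 lay below both wild-type libraries, and cbf12 fell by 1.32 on the log2 scale (SE 0.17, adjusted p = 1e-05), a 2.49-fold drop, beside 2.38% of features that passed in mot2Δ. In caf1Δago1Δ (172, 160 and 162 TPM) it fell by 1.16 (SE 0.18, adjusted p = 0.000159), beside 10.1% of features. In caf1*ccr4* (231 and 243 TPM) it fell by 0.74 (SE 0.20, adjusted p = 0.0304), beside 5.24% of features, and this call was lost without replicate 2 of wild type (adjusted p = 0.35).

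Occupancy at cbf12 was also below wild type in the 3 genotypes. Wild type was at 238 and 276 TPM in ChIP, mot2Δ at 96.7 and 117 TPM, caf1*ccr4* at 128 and 136 TPM, and caf1Δago1Δ at 180 and 172 TPM. The 3 groups did not overlap with wild type or with each other, and mot2Δ was the lowest of 14 genotypes. The level fell by 1.19 in mot2Δ (SE 0.20, adjusted p = 0.0022), by 0.86 in caf1*ccr4* (SE 0.20, adjusted p = 0.0146) and by 0.94 in caf1Δago1Δ (SE 0.20, adjusted p = 0.0026), where 2.55%, 8.88% and 37.2% of features passed. The caf1Δago1Δ libraries were near input, and their cbf12 level lay in the range of input DNA itself (168 to 197 TPM). Against the wild-type library of strain 65 alone the change in mot2Δ was -1.31 (adjusted p = 0.0057), and against that of strain 63 alone -1.08 (adjusted p = 0.0130).

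In the caf1Δ and ccr4Δ single mutants cbf12 was not low. The RIP libraries of caf1Δ were at 396 and 638 TPM and that of ccr4Δ at 635 TPM, the highest genotypes in this assay, and caf1Δ differed from wild type by 0.40 (SE 0.20, adjusted p = 0.58). The lone RIP library of caf1Δdcr1Δ was at 277 TPM, below both wild-type libraries, with a log2 fold change of -0.60 and no test. In pA RNA 0 of 12 mutants passed for cbf12 by edgeR, with 0 at an unadjusted p under 0.05 and 0 by DESeq2, and the 2 mot2Δ libraries stood far apart, at 43.7 TPM (strain 1022) and 9.73 TPM (strain 1023), above and below all 4 wild-type libraries (23.0 to 28.9 TPM).

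**Figure D4:**
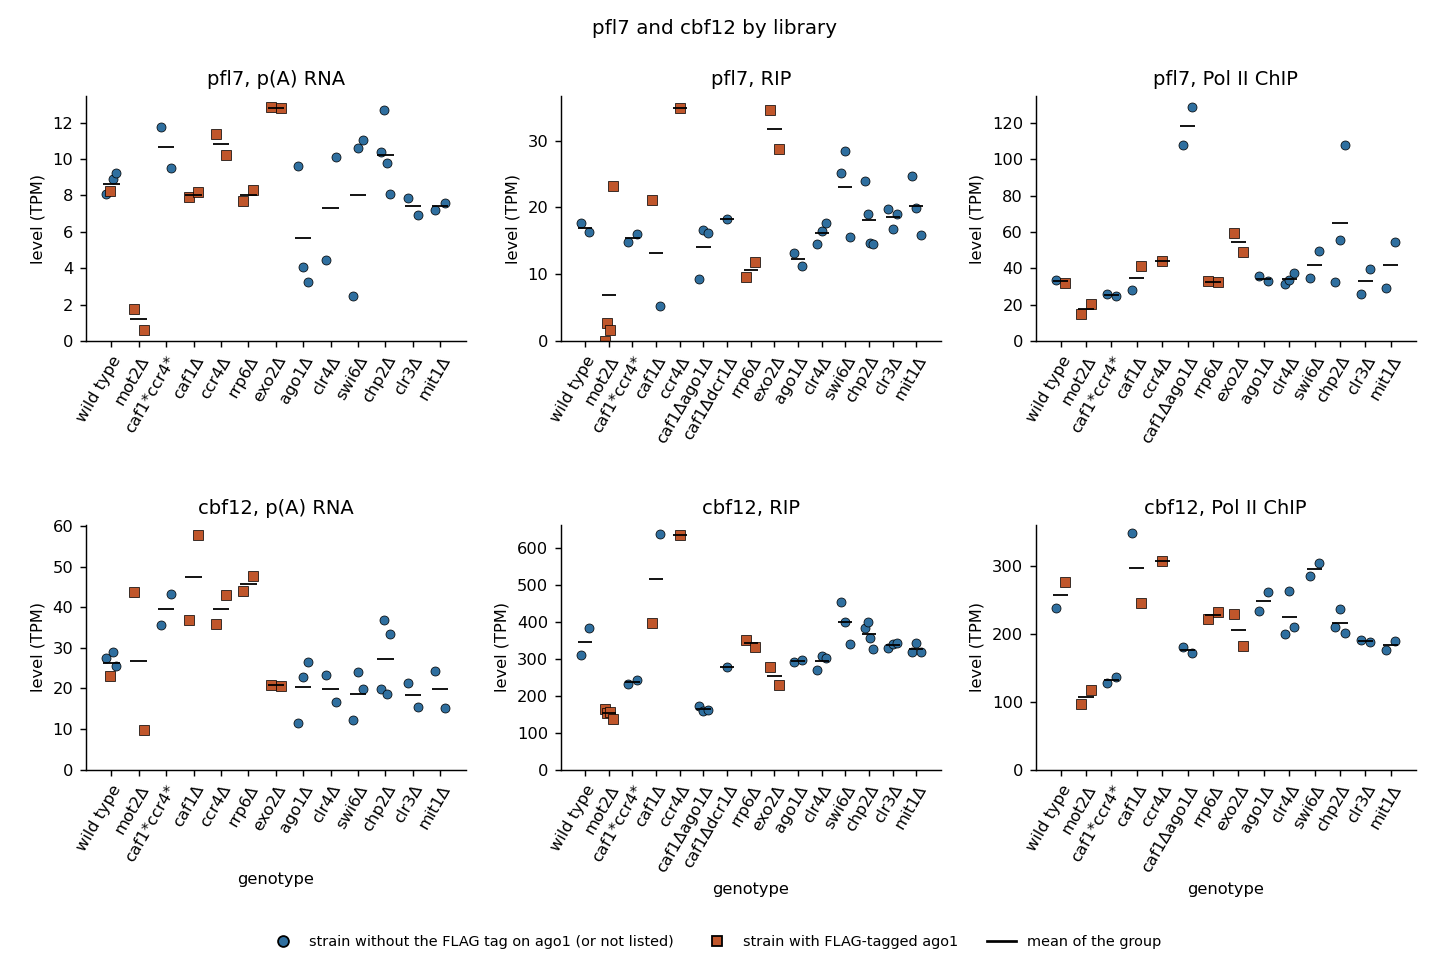
Levels of pfl7 (top) and cbf12 (bottom) in pA RNA, RIP and ChIP (TPM, linear axes), 1 point per library, with squares for strains with FLAG-tagged ago1 and lines at group means. In mot2Δ, pfl7 lies at 1.74 and 0.633 in pA RNA, below every other library, and cbf12 lies at 136 to 164 in RIP and at 96.7 and 117 in ChIP.

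The dominant flocculin gene gsf2 lost nascent RNA in the same 3 genotypes. In RIP, wild type was at 123 and 252 TPM, mot2Δ at 94.0, 92.4, 103 and 86.8 TPM, caf1*ccr4* at 88.0 and 83.3 TPM, and caf1Δago1Δ at 78.7, 73.5 and 76.4 TPM. Each mutant library lay below both wild-type libraries, which themselves differed by more than the lower of them differed from the mutants. The level fell by 1.14 in mot2Δ (SE 0.30, adjusted p = 0.0338), by 1.34 in caf1*ccr4* (SE 0.36, adjusted p = 0.0271) and by 1.41 in caf1Δago1Δ (SE 0.32, adjusted p = 0.0065). All 3 calls were lost without replicate 2 of wild type, when the log2 fold changes were -0.41, -0.63 and -0.69 with adjusted p of 0.85, 0.49 and 0.28. Occupancy at gsf2 in ChIP spanned 44.5 to 103 TPM, and 0 of 12 mutants passed by edgeR, with 3 at an unadjusted p under 0.05 and 0 by DESeq2.

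In steady-state RNA gsf2 was among the scarcest genes, at 8.29, 6.04, 2.96 and 4.00 TPM in wild type. It was at 3.07 and 2.80 TPM in rrp6Δ, which overlapped the lower wild-type libraries, and fell by 1.19 on the log2 scale (SE 0.42, adjusted p = 0.0296), where 35.5% of all features passed. Without replicate 1 of wild type the adjusted p was 0.11. The highest library was replicate 2 of mot2Δ (13.8 TPM), and the other mot2Δ library was at 6.01 TPM.

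The flocculin gene pfl3 changed in the largest number of mutants. In RIP, wild type was at 279 and 534 TPM. The libraries were at 109, 92.6, 88.6 and 93.1 TPM in mot2Δ, at 71.9, 76.5 and 84.0 TPM in caf1Δago1Δ, and at 114, 105 and 91.4 TPM in clr3Δ. They were at 124 and 108 TPM in caf1*ccr4*, 152 and 104 TPM in caf1Δ, 112 and 110 TPM in exo2Δ, and 207 and 208 TPM in rrp6Δ. Every library of these 7 genotypes lay below both wild-type libraries.

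The falls in nascent pfl3 RNA ranged from 2.18-fold to 5.69-fold. They were -2.51 (SE 0.26, adjusted p = 3.6e-07) in caf1Δago1Δ, -2.24 (SE 0.23, adjusted p = 3.9e-07) in mot2Δ and -2.10 (SE 0.25, adjusted p = 6.5e-06) in clr3Δ on the log2 scale. They were -2.02 in caf1*ccr4* (adjusted p = 0.00017), -1.92 in exo2Δ (adjusted p = 0.000447), -1.90 in caf1Δ (adjusted p = 0.00034) and -1.12 in rrp6Δ (adjusted p = 0.0308). The share of all features that passed was 0.84% in clr3Δ, 1.48% in exo2Δ, 0.81% in caf1Δ and 2.37% in rrp6Δ. Without replicate 2 of wild type, the call in rrp6Δ was lost (-0.47, adjusted p = 0.53).

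In contrast, nascent pfl3 RNA had no call in the other mutants of heterochromatin and RNAi. The libraries labelled clr4Δ were at 418, 397 and 454 TPM, those labelled swi6Δ at 474, 379 and 488 TPM, and those of mit1Δ at 567, 498 and 419 TPM. Those of chp2Δ were at 371, 376, 504 and 214 TPM and those of ago1Δ at 300 and 267 TPM. Each of these ranges overlapped the wild-type values, and the log2 fold changes were between -0.44 and 0.10.

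**Figure D5:**
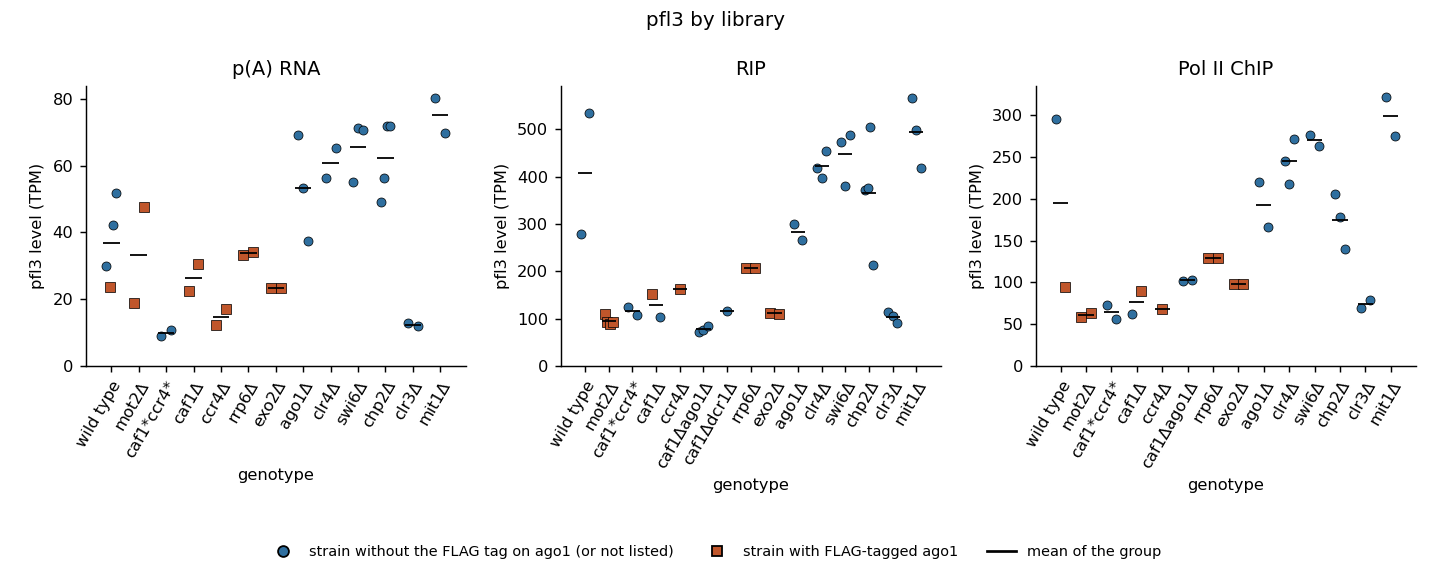
Level of pfl3 in pA RNA, RIP and ChIP (TPM, linear axes), 1 point per library, with squares for strains with FLAG-tagged ago1 and lines at group means. In ChIP the tagged wild-type library lies at 95.0, within the tagged mutants, and the untagged one lies at 295.

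Steady-state pfl3 RNA fell in 3 mutants. Wild type was at 30.0, 23.6, 42.2 and 51.9 TPM, where 23.6 TPM was the library of strain 65. The libraries of caf1*ccr4* were at 9.11 and 10.8 TPM, those of clr3Δ at 12.8 and 11.9 TPM, and those of ccr4Δ at 12.3 and 17.1 TPM, all below every wild-type library. The level fell by 2.18 in caf1*ccr4* (SE 0.39, adjusted p = 0.0007), 4.53-fold, by 1.55 in clr3Δ (SE 0.37, adjusted p = 0.0372) and by 1.46 in ccr4Δ (SE 0.37, adjusted p = 0.0275). The shares of all features that passed were 17.5%, 1.2% and 3.7%. The call in caf1*ccr4* held with strain 65 as the only wild type (-1.41, adjusted p = 0.0465), and those in clr3Δ and ccr4Δ did not (adjusted p = 0.40 in each). Against that library pfl3 was higher in the libraries labelled swi6Δ (1.55, adjusted p = 0.0258).

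The SHREC mutants went apart for pfl3, but their strains also differed in background, so that subunit and background cannot be told apart here. The mit1Δ libraries were the highest genotype in pA RNA (80.3 and 69.8 TPM), and the clr3Δ libraries were lower than those of mit1Δ by 2.56 on the log2 scale (SE 0.42, adjusted p = 0.0022) in a direct contrast in which 0.47% of all features passed. Direct contrasts between mutants of a complex or pathway were 7, and 2 of the 49 pairs passed, beside 3.41% of all pairs. The other call was pfl7 in mot2Δ against caf1Δ.

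Pol II occupancy at pfl3 depended on which wild-type strain was the reference. The ChIP level was 295 TPM in the wild type of strain 63 and 95.0 TPM in that of strain 65. The 8 libraries of tagged mutants, of 5 genotypes, ranged from 58.3 to 129 TPM, around the strain 65 value. Against both wild types, pfl3 fell in mot2Δ (58.3 and 62.8 TPM, log2 fold change -1.61, SE 0.37, adjusted p = 0.0197), caf1*ccr4* (73.2 and 56.4 TPM, -1.49, SE 0.37, adjusted p = 0.0197) and caf1Δago1Δ (102 and 103 TPM, -1.32, SE 0.36, adjusted p = 0.0092). The caf1Δago1Δ libraries were near input, where pfl3 itself lay between 145 and 168 TPM, and 37.2% of all features passed in them. Against strain 65 alone 0 mutants were lower and 1 was higher (mit1Δ, 1.60, adjusted p = 0.0238), and against strain 63 alone 7 were lower. In RIP, where no library of strain 65 was measured, the 10 libraries of tagged mutants had 88.6 to 208 TPM and the other mutants, caf1Δdcr1Δ and both caf1Δago1Δ strains included, 71.9 to 567 TPM. The low pfl3 levels of the untagged clr3Δ strain (RIP 91.4 to 114 TPM, ChIP 69.9 and 78.5 TPM) lay in the range of the tagged mutants.

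The non-coding RNA SPNCRNA.1379 overlaps the start of pfl3 on the opposite strand in the RefSeq annotation, over 303 bases or 9.31% of the gene. It rose in exo2Δ in pA RNA (log2 fold change 1.38, SE 0.42, adjusted p = 0.0244) and passed in no other mutant or assay (in RIP 0 and in ChIP 6 of 12 mutants had an unadjusted p under 0.05). Across 37 RIP libraries its Spearman correlation with pfl3 was 0.14, and across 29 ChIP libraries, which share unstranded reads in the overlap, it was 0.93.

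The flocculin gene pfl4 had 1 call. Across the genotypes its mean level ranged from 12.6 to 22.9 TPM in pA RNA, from 79.1 to 183 TPM in RIP and from 96.5 to 166 TPM in ChIP, where the highest mean was that of the near-input caf1Δago1Δ libraries. It rose in exo2Δ, at 21.7 and 20.6 TPM against 13.2, 14.4, 14.3 and 11.01 TPM in wild type, by 1.56-fold (log2 fold change 0.64, SE 0.21, adjusted p = 0.0355), where 21.8% of all features passed. The mutant libraries lay above all wild-type libraries, yet the call was lost under 15 of 38 alternatives, among them the removal of either exo2Δ library (adjusted p of 0.18 and 0.16). The libraries of mot2Δ were as high, at 22.1 and 23.7 TPM, and their difference did not pass. The non-coding RNA SPNCRNA.1201 overlaps 808 bases of pfl4 on the opposite strand, 22.5% of the gene, and rose in pA RNA in exo2Δ (1.55, SE 0.30, adjusted p = 0.00071) and rrp6Δ (1.86, SE 0.30, adjusted p = 4.9e-05).

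The flocculin gene pfl5 moved toward higher occupancy in 2 genotypes. In ChIP, wild type was at 21.4 and 31.9 TPM, caf1*ccr4* at 61.0 and 46.2 TPM, and caf1Δago1Δ at 72.7 and 80.2 TPM. Neither mutant overlapped with wild type, and occupancy rose by 1.10 on the log2 scale in caf1*ccr4* (SE 0.24, adjusted p = 0.0109) and by 1.12 in caf1Δago1Δ (SE 0.23, adjusted p = 0.0026). In input DNA pfl5 lay between 73.9 and 118 TPM, and the caf1Δago1Δ libraries were among those near input. In pA RNA its level was between 0.992 TPM in a library labelled swi6Δ and 7.39 TPM in a caf1Δ library, and 0 of 12 mutants passed by edgeR, with 3 at an unadjusted p under 0.05 and 0 by DESeq2. The libraries of ccr4Δ (5.10 and 5.35 TPM) and clr3Δ (4.72 and 4.62 TPM) lay above all 4 wild-type libraries (1.13 to 3.66 TPM). So did those of caf1Δ (3.96 and 7.39 TPM) and caf1*ccr4* (3.86 and 4.50 TPM), and those of no other genotype. None of these differences passed, and the share of all features that separate in this way was not counted. Across the 32 pA RNA libraries pfl5 and pfl3 ran in opposite directions, with a Spearman correlation of -0.79, the largest in size of the 21 pairs of genes in that assay.

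The flocculin gene pfl7 lost its steady-state RNA in mot2Δ. The 4 wild-type libraries were at 8.09, 8.25, 8.89 and 9.23 TPM, and the mot2Δ libraries at 1.74 and 0.633 TPM, from 24 and 20 reads. No other library of any genotype was as low, the next being at 2.45 TPM in a library labelled swi6Δ. The level fell by 3.23 on the log2 scale (SE 0.53, adjusted p = 0.00053), 9.37-fold, where 4.92% of all features passed. The fall was -3.09 (adjusted p = 0.0160) with strain 65 as the only wild type. It was also lower than in caf1Δ (7.91 and 8.17 TPM) by 2.73 (SE 0.55, adjusted p = 0.0063), where 2.85% of features passed, and this call was lost without replicate 2 of mot2Δ (-2.23, adjusted p = 0.14).

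Nascent pfl7 RNA was low in 3 of the 4 mot2Δ libraries. They were at 0, 2.76, 1.60 and 23.2 TPM, from 0, 13, 7 and 11 reads, and wild type was at 17.7 and 16.3 TPM. The count of 0 in replicate 2 allows up to 3 reads. The highest value, in replicate 5, came from the shallowest of the 4 libraries (358657 counts). The difference did not pass (-2.27, SE 0.67, adjusted p = 0.0769), and without replicate 5 it was -3.41 with an adjusted p of 5.05e-05. In ChIP mot2Δ was the lowest of 14 genotypes for pfl7, at 15.0 and 20.2 TPM against 33.7 and 32.1 TPM in wild type, and did not pass (-0.82, SE 0.31, adjusted p = 0.18). Occupancy rose in caf1Δago1Δ (108 and 129 TPM, log2 fold change 1.45, SE 0.30, adjusted p = 0.0025), whose libraries were near input. Input itself lay between 178 and 214 TPM at pfl7, and the near-input replicate 3 of chp2Δ was also at 108 TPM.

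For RNA stability and transcription efficiency, the test asked whether a mutant's change differed between the 2 assays of each ratio. For stability 1 of 77 pairs passed, beside 1.23% of all pairs, and 13 had an unadjusted p under 0.05. The ratio of pA RNA to RIP of pfl3 rose in mot2Δ by 1.99 on the log2 scale (SE 0.45, adjusted p = 0.0421), where 0.166% of features passed. The pA RNA of pfl3 in mot2Δ, at 18.9 (strain 1022) and 47.5 TPM (strain 1023), overlapped the wild-type range of 23.6 to 51.9 TPM. Its nascent RNA averaged 95.9 TPM in mot2Δ and 407 TPM in wild type. All 4 mot2Δ RIP libraries were of strain 1022. Wild type was of strains 63 and 65 in pA RNA and of strain 63 alone in RIP. The 2 assays thus held different sets of strains, and what part this had in the call was not tested. Without replicate 2 of wild type in RIP the adjusted p was 0.54. For transcription efficiency 0 of 84 pairs passed by edgeR, beside 1.01% of all pairs, with 8 at an unadjusted p under 0.05, 0 by DESeq2 and a lowest adjusted p of 0.0745.

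Among the genes, nascent gsf2 and pfl3 rose and fell together over the 37 RIP libraries (Spearman correlation 0.77), as did gsf2 and cbf12 (0.68) and mbx2 and pfl4 (0.79). In ChIP the correlation of gsf2 and pfl3 was 0.62 over 29 libraries, and in pA RNA that of gsf2 and mbx2 was 0.50 over 32. These values are descriptions over libraries that share genotypes, strains and depth. The protein-coding genes most like gsf2 in pA RNA, among 5030, were SPBC17G9.12c (0.73), abp1 (0.73), SPBC1604.04 (0.72), ted1 (0.71) and rnp24 (0.71). Those most like mbx2 were prh1 (0.71), aps3 (0.70), trs31 (0.66), tna1 (0.65) and pek1 (0.62).

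Further genes of adhesion and of its control were counted in the same fits. Of 6 other flocculin and adhesin genes, 2 pairs were higher and 1 lower of 72 in pA RNA (4.17%), 2 higher and 5 lower of 60 in RIP (11.7%), and 5 higher and 1 lower of 72 in ChIP (8.33%), beside the 10.6%, 2.04% and 4.52% of all pairs. The flocculin gene pfl9 rose in exo2Δ in RIP (3.46, SE 0.77, adjusted p = 0.0161) and in pA RNA (2.96, SE 0.49, adjusted p = 0.000175). Both higher pairs in RIP were of pfl9, the other in caf1Δago1Δ (2.76). Lower in RIP were mam3 (-1.47 in caf1*ccr4* and -0.98 in caf1Δ) and pfl2 (-1.46 in caf1*ccr4* and -1.17 in caf1Δago1Δ). So was pfl8 (-1.23 in caf1Δago1Δ). In ChIP, 4 of the 5 higher pairs and the lower one were of caf1Δago1Δ, whose libraries were near input and where 37.2% of all features passed, among them pfl6 (3.39, adjusted p = 0.0311) and pfl2 (-3.38, adjusted p = 0.0024).

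Of the transcription factors of adhesion, 5 matched a feature, and 5 pairs were higher and 3 lower of 60 in pA RNA (13.3%), 0 of 60 passed in RIP by edgeR (9 at an unadjusted p under 0.05), and 3 of 60 passed in ChIP (5.0%), 2 of them in the near-input caf1Δago1Δ libraries. All 5 higher pairs in pA RNA were of sre2, a membrane-bound factor of the SREBP family (chosen after its values were seen), in caf1*ccr4*, ccr4Δ, mot2Δ, caf1Δ and exo2Δ, by 0.52 to 1.07 on the log2 scale. In rrp6Δ adn2 fell (-1.63, adjusted p = 0.0124), and in caf1*ccr4* cbf11, the second CSL gene, fell (-1.18, adjusted p = 0.00041). Of 8 corepressor and kinase genes, 9 pairs were higher and 3 lower of 96 in pA RNA (12.5%), 1 higher and 2 lower in RIP, and 2 higher and 2 lower in ChIP. The kinase gene lkh1 rose in pA RNA in caf1Δ (1.54, SE 0.23, adjusted p = 0.00017), and also in ccr4Δ (1.32), mot2Δ (1.27) and caf1*ccr4* (1.25). The corepressor gene tup12 fell in rrp6Δ in pA RNA (-1.44, adjusted p = 0.0034) and rose there in RIP (0.63, adjusted p = 0.0345). All 4 calls in ChIP were of the near-input caf1Δago1Δ libraries, where 37.2% of all features passed, with ssn6 the largest in size (-1.70, adjusted p = 0.0069).

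Of 11 genes for enzymes and proteins of the cell-wall glucan, 4 pairs were higher and 7 lower of 132 in pA RNA (8.33%), 1 higher and 6 lower in RIP (5.3%), and 0 higher and 7 lower in ChIP (5.3%), all 7 in the near-input caf1Δago1Δ libraries. Of 8 genes of mating and meiosis, 8 pairs were higher and 1 lower of 96 in pA RNA (9.38%). Of the higher pairs 4 were in rrp6Δ, led by rec8 (6.03) and spo5 (5.96). Whether any culture held cells other than vegetative ones was not tested. Stress genes were 10 pairs higher and 5 lower of 72 in pA RNA (20.8%) and 8 higher and 2 lower in RIP (13.9%), led by the small heat shock gene hsp16 in caf1Δago1Δ in RIP (6.24, adjusted p = 5.8e-08). Of the 8 higher pairs in RIP 7 were of hsp16. In mot2Δ, where nascent pfl3, cbf12 and gsf2 RNA fell, hsp16 rose (3.21, adjusted p = 0.00036) and the glycerol phosphate dehydrogenase gene gpd1 fell (-2.76, adjusted p = 0.0372) in RIP. Their part in those results was not tested.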

How the data were processed

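The deposited values are raw counts of reads per feature that the authors made for 1 library each, with no normalization and no subtraction of input. The authors aligned reads with STAR 2.7.3a to the PomBase genome, removed ribosomal RNA reads and counted features with an extension of HTSeq, by strand for RNA and without strand for ChIP. They kept unique reads, and reads with several locations only within heterochromatin. Total counts ranged from 320010 to 23465130 over the pA RNA, RIP and ChIP libraries.

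The filter was a minimum of 10 counts in 2 or more libraries, and the test was that of edgeR 4.0.16 in R 4.3.3 (quasi-likelihood test, TMM normalization, 1 fit per assay, genotype as the term, Benjamini-Hochberg adjustment over all features, two-sided). For stability and efficiency the term was the assay by genotype interaction. Genotypes with 1 library got no p. In groups of 3 or more, a library with no Spearman correlation of 0.8 or higher to a replicate was left out. The steps were tested on simulated data, with mot2Δ as the changed group. Of features changed 2-fold there, 48% were recovered in pA RNA, 31% in RIP and 66% in ChIP. Of those changed 4-fold, 82%, 92% and 99% were recovered. Changes of 2-fold could thus be missed. TPM was computed in Python 3.11.15 with pandas 2.3.3 over protein-coding and repeat features, and CPM, counts scaled to the total over all features, for the non-coding RNAs. RefSeq ASM294v3 gave positions and sequences; the files carry no coordinates, and whether that is the authors' build was not given in the sources used here.

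Alternatives were DESeq2 1.42.0, no count filter, all libraries kept, a fit of the 2 groups compared only, a replicate block and each library left out. In total RNA all 9 pairs of samples with the same replicate number deviated together (correlations of 0.232 to 0.841), so the numbers paired those samples, and the block changed no call there. The genes named are the 7 genes, with their values wherever the adjusted p was under 0.05. Also named are at most 3 genes per further list by size of change, and the 5 genes most like gsf2 and mbx2. The adhesin genes that fell in RIP were added. The genes and lists were chosen with earlier results of these data known. Reads carry no molecular identifiers, so limits from a count of 0 cover counting error only.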

Additional observations from a re-analysis of the deposited data

Results flagged for a closer look

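In 28 groups of 4 libraries or more, the highest or lowest library was compared with the rest by Dixon's test, which chance meets in about 1 of 20 groups. Nascent gsf2 RNA in replicate 4 of chp2Δ, at 93.6 TPM, lay far below the other 3 libraries of that genotype (178, 195 and 182 TPM). Nascent pfl7 RNA in replicate 5 of mot2Δ, at 23.2 TPM from 11 reads, lay far above the other 3 (0, 2.76 and 1.60 TPM).

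Effects that differed between mutants or assays by their own test were 3. Steady-state pfl7 RNA was lower in mot2Δ than in caf1Δ by 2.73 on the log2 scale (log2 difference -2.73). Steady-state pfl3 RNA was lower in clr3Δ than in mit1Δ (log2 difference -2.56). The change of pfl3 in mot2Δ differed between pA RNA and RIP (log2 difference 1.99).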

How the results depend on the processing

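Of 33 pairs of a gene and a mutant that passed, 9 passed under every alternative tried and 0 changed direction. In 1220 combinations of such a pair and an alternative, 1126 passed and 94 did not. The 9 were pfl7 in mot2Δ and pfl3 in caf1*ccr4* in pA RNA, pfl3 and cbf12 in mot2Δ and in caf1Δago1Δ in RIP, and cbf12, pfl5 and pfl7 in caf1Δago1Δ in ChIP; these last 3 rest wholly on libraries near input, and no alternative tried could test them without those libraries. With only the 2 groups compared in the fit, calls dropped to 2 in pA RNA, 6 in RIP and 3 in ChIP; by its construction this fit has fewer libraries to estimate the spread from. With each library left out in turn, calls ranged from 5 to 9 in pA RNA, 8 to 14 in RIP, 8 to 19 in ChIP, 0 to 2 for stability, 0 to 2 for efficiency and 1 to 3 for direct contrasts. The lowest count in RIP, 8, was without replicate 2 of wild type, and the highest in ChIP, 19, was without replicate 3 of wild type (strain 65). DESeq2 gave 2 calls for stability, and the replicate block gave 2 for efficiency. Where an arm kept 1 library, it was assumed to vary like the other groups. The cause of these shifts was not tested.

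Chosen after seeing the data were a fit of pA RNA with strain 65 as the only wild type, which gave 4 calls, and one of ChIP without both caf1Δago1Δ libraries and replicate 3 of chp2Δ, which gave 6 over the mutants left. Outside total RNA it was not settled whether the replicate numbers paired samples. The median correlation of deviations between same-numbered libraries was 0.033 in pA RNA, 0.010 in RIP and 0.043 in ChIP. In these assays 21 of 32, 11 of 35 and 13 of 28 libraries correlated best with their own number. In pA RNA 163 pairs of libraries shared a number and 306 did not. Depth limits pfl7 most, whose pA RNA level in mot2Δ rests on 20 and 24 reads.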
